A study of Chlamydomonas reinhardtii with 8 samples.

Results

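In Chlamydomonas reinhardtii, 15 array probes that were bright on every control array at 23 °C were dimmer than the median probe on every array from cells kept at 42 °C. The 15 members are 0.15% of the 10000 probes on the array and 0.749% of the 2002 that were bright in all controls. They were chosen by the brightness rank of each probe within its own array, where 100 is the brightest. A member had a rank of at least 75 on all 4 control arrays and below 50 on all 4 heat shock arrays. The choice therefore used the contrast between the groups on all 8 arrays, and the values of that contrast are given below as a description. There were 63 probes with the opposite pattern, below rank 50 in all controls and at 75 or above on all heat shock arrays.

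The series compared total RNA from whole cells of strain CC-124, a unicellular green alga, on 1-colour Agilent arrays of oligonucleotide probes. Control cultures were kept at 23 °C in the light, and heat shock cultures, also in the light, were shaken for 45 min at 42 °C. The control samples are likewise labelled 45 min. Each group had 4 arrays, while the series text speaks of 3 biological replicates, and since no label ties an array to a culture, the spread between arrays may be partly technical. All 8 arrays carried RNA of the same strain, and growth before the treatment may have been in the dark or in light, which is not given for single cultures.

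Cells moved to a high temperature are known to raise the transcripts of heat shock proteins, which refold damaged proteins, and to cut back the expression of many other genes. An mRNA level is the balance of synthesis and decay, and an array reads that level alone. The genes behind the 15 probes are not known here. The files describe all 10000 probes as unknown, and 0 of the 15 probe IDs occur in the RefSeq gene table of assembly Chlamydomonas_reinhardtii_v5.5, which lists 17742 genes without sequences. No gene list could therefore be counted, and no position in the genome is given. Since probes differ in how well they hybridize, a rank is one of brightness and need not be one of transcript number. Whether the members are abundant transcripts could not be checked against known genes, and neither could the labelled cells by marker genes.

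The probe sequences are the only identity these transcripts have in the files. The 6 members with the largest fall in mean rank are printed first, followed by 5300.C and 6078.C, which had the highest mean ranks in controls outside those 6. Sequences are as spotted on the array, 5′ to 3′, with the word TGGAATG in capitals.
1409.C: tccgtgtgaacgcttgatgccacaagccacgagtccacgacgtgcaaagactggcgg
1009.C: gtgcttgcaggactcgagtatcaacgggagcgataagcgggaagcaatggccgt
6977.C: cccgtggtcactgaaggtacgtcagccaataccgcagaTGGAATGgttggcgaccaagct
9115.E: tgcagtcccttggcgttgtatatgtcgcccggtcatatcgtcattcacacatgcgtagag
2762.C: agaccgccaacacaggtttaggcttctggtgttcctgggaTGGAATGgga
3171.C: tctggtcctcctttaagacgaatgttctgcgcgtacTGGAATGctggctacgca
5300.C: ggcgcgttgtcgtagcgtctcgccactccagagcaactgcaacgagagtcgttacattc
6078.C: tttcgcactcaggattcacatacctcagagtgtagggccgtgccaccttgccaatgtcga

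TGGAATG was the only word of 7 bases found in at least 3 members on the printed strand. It stood in 3 of the 15 probes, against 0.49% of all array probes on that strand and 0.87% on either strand. The word was picked from these sequences after the members were known, and its presence is a description only. TGTAA, known as the polyadenylation signal of nuclear genes in this alga, stood in 0 of the 15 members on the printed strand. It stood in 2.82% of all probes and in 5.09% of the 2002 probes that were bright in controls, and 0 of 15 lies close to either share. No member shared a run of 16 bases with any other array probe on either strand, so no pair of members overlaps by 16 bases or more. Shorter overlaps are not covered by this search. Whether members read separate stretches of 1 transcript cannot be told from the sequences.

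The probes of the members were longer than most. Their median length was 59 bases (range 50 to 60), against 54 over all probes, and 9 of the 15 had 59 or 60 bases. That is 60% of the members against 19.8% of all probes and 22.4% of the probes bright in all controls. The 32 other control-bright probes whose mean heat shock rank was below 50 had 25% at 59 or 60 bases, and the 224 other probes that fell at least 16-fold had 23.7%. Median GC content was 53.3% (range 45% to 59.6%), against 55.4% over all probes and 54.7% over control-bright probes. By the letter of the ID, whose meaning the files do not give, 10 members carried C, 2 carried D, 2 carried E and 1 carried A. C was carried by 69.7% of all probes and by 54.2% of control-bright probes.

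The members' signals in the 2 groups lay far apart. On control arrays they ran from 5749 to 20641 intensity units, and on heat shock arrays from 7.17 to 115. The lowest control signal of any member was thus 50.1 times the highest heat shock signal of any member. Values of single arrays are given in the order of replicates 1 to 4 throughout. The median member signal was 12665, 9742, 8665 and 9523 at 23 °C against 64.5, 32.3, 45.5 and 36.6 at 42 °C. No member was saturated on any array, and none of their 21 spots was flagged on any array.

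**Figure D1:**
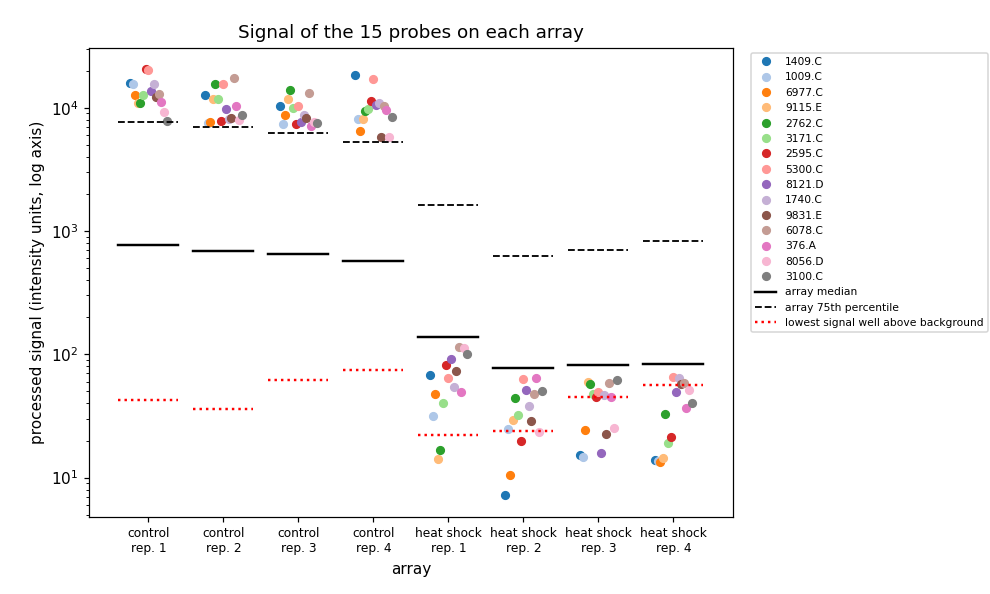
Processed signal (vertical log axis, intensity units) of the 15 members on each of the 8 arrays, with 1 coloured point per probe. Solid bars are the array's median probe, dashed bars its 75th percentile and dotted red bars its lowest signal among probes well above background; on control arrays all points lie above the dashed bar, and on heat shock arrays all lie below the solid bar, many near or under the dotted bar.

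The arrays as a whole also differed in brightness. The median probe signal lay between 569 and 765 in controls and between 78.0 and 138 after heat shock. Well above background were 65.1% to 74.1% of probes in controls and 51.9% to 68.4% after heat shock. The mean log2 signal of the 5 usable spike-in probes, which report RNA added to each sample, was 12.52 ± 0.28 over the controls (SD, n = 4) and 13.04 ± 0.41 over the heat shock arrays (SD, n = 4). The part of these whole-array differences in the members' fall was not tested. Ranks within an array do not depend on its scale, while fold changes do. A level below is a log2 signal from which the 75th percentile of its array was subtracted. On this scale 2820 probes (40.7%) were called higher and 2205 lower of 6921 tested (limma, adjusted p under 0.05), a split that became 472 and 5213 with spike-in scaling, 2227 and 2620 with quantile normalization and 3332 and 1664 with normexp background correction.

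In these total RNA samples, fewer cells that hold a transcript and less of it in each cell cannot be told apart. All 15 members passed the detection filter, and they did so through the control arrays alone, since all were well above background on 4 of 4 control arrays and none on 4 of 4 heat shock arrays. A member with 2 spots was counted as well above background on an array only where both spots were. Of the members' 60 values on heat shock arrays, 24 were well above background. These fell unevenly over the arrays, with 12, 8, 3 and 1 members detected on heat shock replicates 1 to 4. On the same arrays the lowest signal among probes well above background was 22.1, 23.7, 44.9 and 56.9, and 68.4%, 62.0%, 55% and 51.9% of all probes were detected. Counts of detected members thus fell in the same order as these shares. Per member, 1 was detected on no heat shock array, 6 on 1 array, 6 on 2 arrays and 2 on 3 arrays. For 6 of the 60 values the files hold a surrogate, a stand-in where the signal could not be told from background.

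All 15 members were called lower after heat shock by limma, where 31.9% of all tested probes were called lower. For all 15, every heat shock array lay below every control array, as it did for 29.1% of tested probes. All 15 were at least 16-fold lower, as were 3.45% of tested probes. The rule that chose the members used this contrast, so nothing is read from these counts. The median log2 fold change of the members was -5.12 (range -6.73 to -4.21), or 34.7-fold lower, against 0.27 over all tested probes. In the signals as read, with no scaling between arrays, the falls ran from 136-fold to 779-fold with a median of 255-fold. With a floor common to all arrays in place of any smaller value, the median fall was 22.6-fold, with a range of 16.6-fold to 31.8-fold.

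**Figure D2:**
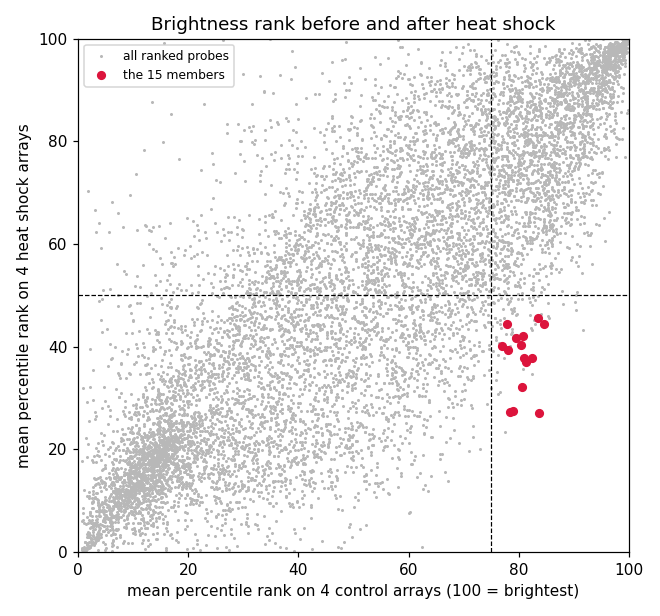
Mean percentile rank of each probe over the 4 control arrays (horizontal) and the 4 heat shock arrays (vertical), with all ranked probes in grey and the 15 members in red. Dashed lines mark ranks 75 and 50; the members have mean control ranks of 76.9 to 84.7 and mean heat shock ranks of 27.0 to 45.5.

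Probe 1409.C had the largest fall in mean rank. Its signal was 15763, 12717, 10366 and 18252 at 23 °C against 67.5, 7.17, 15.2 and 14.0 at 42 °C. Among its heat shock values, that of replicate 1 was the highest. On 0 heat shock arrays were both of its spots well above background, so its fall is given as a lower bound. The bound is 42.2-fold when values under the lowest detectable signal of their array are raised to it. That bound keeps the value of heat shock replicate 1 as measured and depends on the floor, since the fall was 31.8-fold with the common floor and 17.7-fold with normexp background correction. Its mean rank went from 83.7 to 27.0. It is spotted 2 times, and on heat shock replicate 1 its spots read 204 and 22.3, a 9.16-fold gap, while on the other heat shock arrays they differed by at most 1.2-fold. Its rank of 41.2 on that array, its highest after heat shock, thus rests on spots that disagree.

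Probes 1009.C and 6977.C reached similarly low mean ranks, 27.4 and 27.2, from 79.0 and 78.4. Probe 1009.C read 15486, 7568, 7403 and 8061 at 23 °C against 31.8, 24.7, 14.7 and 13.5 at 42 °C. Control replicate 1 stood above the other controls. Its level went from 0.50 ± 0.40 to -5.46 ± 0.55 (SD, n = 4 each), and it was well above background on 1 heat shock array. Probe 6977.C read 12665, 7708, 8665 and 6416 at 23 °C against 47.8, 10.6, 24.2 and 13.4 at 42 °C. Its level went from 0.41 ± 0.25 to -5.45 ± 0.57 (SD, n = 4 each), also with detection on 1 heat shock array. These 2 were the only members below rank 40 on every heat shock array. Most of their heat shock signals were not well above background, and their lower bounds were 33.1-fold and 28.3-fold. The bounds of 2762.C (39.1-fold), 9115.E (37.1-fold) and 5300.C (34.7-fold) were larger. The order of the members by fall thus depends on how dim signals are treated.

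Probes 9115.E and 2762.C had the largest SDs of the scaled level among the heat shock arrays, while by the SD of the rank 6977.C was the most variable member (11.3, n = 4). Probe 9115.E read 10945, 11647, 11664 and 8148 at 23 °C against 14.2, 29.3, 59.7 and 14.5 at 42 °C. It was detected on heat shock replicate 3 alone, where its rank was 45.7, against 22.0 to 37.0 on the others. Probe 2762.C read 10966, 15456, 13825 and 9392 at 23 °C against 16.8, 44.6, 57.7 and 32.7 at 42 °C. Its lowest value was on heat shock replicate 1, the brightest array of that group, and it was detected on replicates 2 and 3. The SD of the level after heat shock was 1.46 for 9115.E and 1.36 for 2762.C (n = 4), against a median of 0.57 over the members. Their control SDs of 0.17 and 0.30 were near the members' control median of 0.28.

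Probe 3171.C was even in controls. It read 12637, 11797, 9857 and 9781 at 23 °C, with ranks of 80.5 to 82.8. At 42 °C it read 40.4, 32.3, 47.2 and 19.0. Its 2 spots differed by at most 1.22-fold on any array, so this fall was read alike at both places. Probe 2595.C was the most variable member in controls, with 20641, 7770, 7394 and 11329 and a level SD of 0.63 (n = 4). Control replicates 1 and 4 were high and replicates 2 and 3 low. After heat shock it read 82.1, 19.7, 45.5 and 21.2, again highest on replicate 1. Its rank was highest there too (43.6), while its level was highest on replicate 3 (-3.94, against -4.29 on replicate 1).

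The members brightest in controls by mean rank were 5300.C, 1409.C and 6078.C, at 84.7, 83.7 and 83.4. Probe 5300.C read 20179, 15674, 10304 and 17045 at 23 °C against 64.5, 62.6, 49.1 and 65.9 at 42 °C. It was detected on heat shock replicates 1 and 2, and its unscaled heat shock signals lay close together. Its level went from 1.25 ± 0.41 to -3.87 ± 0.56 (SD, n = 4 each), a heat shock SD near the members' median of 0.57. Probe 6078.C read 12943, 17515, 13221 and 10227 at 23 °C against 115, 47.9, 58.7 and 58.8 at 42 °C. Relative to the arrays' 75th percentile its heat shock level was the steadiest of the members, at -3.73 ± 0.12 (SD, n = 4), and it was detected on 3 heat shock arrays. It fell by 4.77 on the log2 scale (SE 0.28), or 27.3-fold.

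The 4 members with the smallest fall in mean rank were 3100.C, 8056.D, 376.A and 6078.C, at 33.5 to 37.9 rank units. Probe 3100.C read 7852, 8752, 7554 and 8457 at 23 °C against 101, 50.7, 62.4 and 40.4 at 42 °C. It had the smallest log2 fold change, -4.21 with an SE of 0.32, or 18.5-fold lower. Probe 8056.D read 9232, 7938, 7605 and 5749 at 23 °C against 112, 23.6, 25.2 and 51.3 at 42 °C. Those control signals followed the brightness of the arrays, and its control level was the steadiest of the members (0.22 ± 0.07, SD, n = 4). Probe 376.A, the member with the lowest GC content (45%), read 11025, 10374, 7066 and 9523 at 23 °C against 49.3, 64.8, 45.3 and 36.6 at 42 °C.

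The 3 remaining members lay between these. Probe 8121.D read 13622, 9742, 7715 and 10477 at 23 °C against 91.1, 51.0, 16 and 49.2 at 42 °C, lowest on replicate 3. Probe 1740.C read 15632, 8139, 8754 and 10926 at 23 °C against 54.3, 37.8, 46.4 and 64.7 at 42 °C, and it was detected on 3 heat shock arrays. Probe 9831.E read 12097, 8178, 8269 and 5805 at 23 °C against 72.7, 28.6, 22.5 and 57.4 at 42 °C. Their log2 fold changes were -4.99, -4.84 and -4.80.

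The rule's limits were met closely on either side. The member nearest to the control limit was 3100.C, with a lowest control rank of 75.3, and the nearest probe outside it was 7345.C at 74.7. The member nearest to the heat shock limit was 376.A, with a highest heat shock rank of 47.8, and the nearest probe outside it was 5631.C at 50.2. With limits of 80 and 40 no probe met the rule. With the control limit at 85 or above, 0 probes lay below rank 50 on all heat shock arrays, so the members came from the lower part of the control-bright range. Among the 2002 control-bright probes, 1902 lay below rank 50 on no heat shock array where they had a rank, 37 on 1, 26 on 2, 22 on 3 and 15 on all 4.

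**Figure D3:**
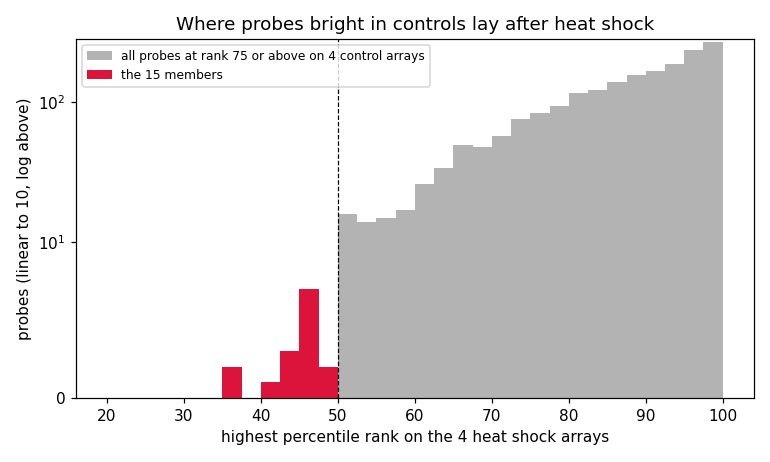
Highest percentile rank on the 4 heat shock arrays (horizontal) of all probes at rank 75 or above on all 4 control arrays, in grey, as counts of probes (vertical axis linear to 10 and logarithmic above). The 15 members, in red, lie below the dashed line at 50, and the counts grow towards rank 100.

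The number of members depended on heat shock replicate 1. Without that array 26 probes met the rule, including all 15, and without any other single array 15 to 21 did. Probes chosen on 3 replicate numbers were then looked up on the control and heat shock array of the number left out. For number 1, 15 of 32 met the rule there too (46.9%), for number 2, 15 of 27 (55.6%), for number 3, 15 of 20 (75%) and for number 4, 15 of 17 (88.2%). Over all probes with a rank on the same pair, the shares were 1.01%, 0.763%, 0.895% and 1.26%. The 15 are the members themselves by construction, so these shares differ only by how many probes were chosen on the other 3 numbers. Nothing is read from their distance to the shares over all probes. Probes chosen without number 1 had a heat shock rank on that array of at most 59.4, with a median of 47.4, and a control rank of at least 69.8. Of these 32 probes, 26 met the control limit and 17 the heat shock limit of that number. For number 2 the lowest control rank was 62.2, and 21 of 27 met the control limit and 19 the heat shock limit.

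Spread between arrays of a group was of the same order in the members and in other probes bright in controls. The median SD of the level over control arrays was 0.28 for the members and 0.38 for the 1987 other control-bright probes (n = 4 arrays each). Over heat shock arrays it was 0.57 for the members and 0.53 for those other probes. It was 0.91 for the 4271 other probes below rank 50 on all heat shock arrays. By rank the members and these probes were alike, with median SDs of 5.96 and 6.12 over heat shock arrays. In 13 of 15 members the SD of the level was larger after heat shock than in controls. The 6 members with 2 spots give the error within an array. Their spots differed by a median of 1.05-fold and at most 1.21-fold on control arrays (24 pairs). On heat shock arrays the median was 1.21-fold and 5 of 24 pairs were over 2-fold apart, so heat shock levels of single members carry a much larger error than control levels.

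**Figure D4:**
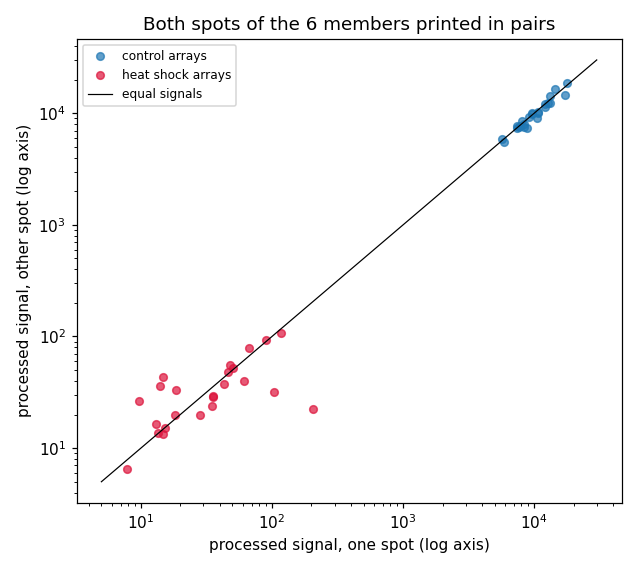
Processed signal of both spots (log axes) of the 6 members that are spotted 2 times, with 1 point per probe and array, control arrays in blue and heat shock arrays in red. Control points follow the line of equal signals within 1.21-fold, while heat shock points scatter, the widest being 1409.C on heat shock replicate 1 at 9.16-fold.

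The order of the members among themselves was only partly shared between arrays. Over the 15 members, Spearman correlations of levels ran from -0.02 to 0.73 between control arrays and from -0.02 to 0.59 between heat shock arrays. The correlation between mean control and mean heat shock level was 0.05. These are descriptions over 15 probes on shared arrays, in a range of brightness that the rule itself made narrow.

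The size of the fall depended on the processing. The rule that chose the members used this contrast, so nothing is read from the direction of the fall or from the counts called. With spike-in scaling the median log2 fold change of the members was -8.52 (367-fold lower) and that of all tested probes -3.13. All 15 members were called lower there, beside 75.3% of tested probes. With quantile normalization the medians were -5.65 and -0.22, with 15 members called lower beside 37.9% of probes. With normexp background correction, which adds an offset and so compresses dim signals, the members' median was -3.74 (13.4-fold lower) and that of all probes 0.76, with 15 called lower beside 24% of probes. Relative to the median of all tested probes, the members' median stood at -5.39 (log2) with the 75th percentile and with the spike-ins. This equality follows from the method, since each scaling subtracts a single value per array. Relative to the same median, the members' median was -4.50 with normexp. All 15 were also called lower with array median scaling (32.4% of tested probes), with a floor common to all arrays (27%), in the deposited log2 values (32.9%), with the replicate number as a block (33.3%) and with the slide row as a block (31.3%). Within slide row 1, with 2 arrays of each group, the members' median was -5.28 and 15 were called beside 19.3% of probes. Within slide row 2, it was -5.13 and 15 were called beside 27.6%.

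**Figure D5:**
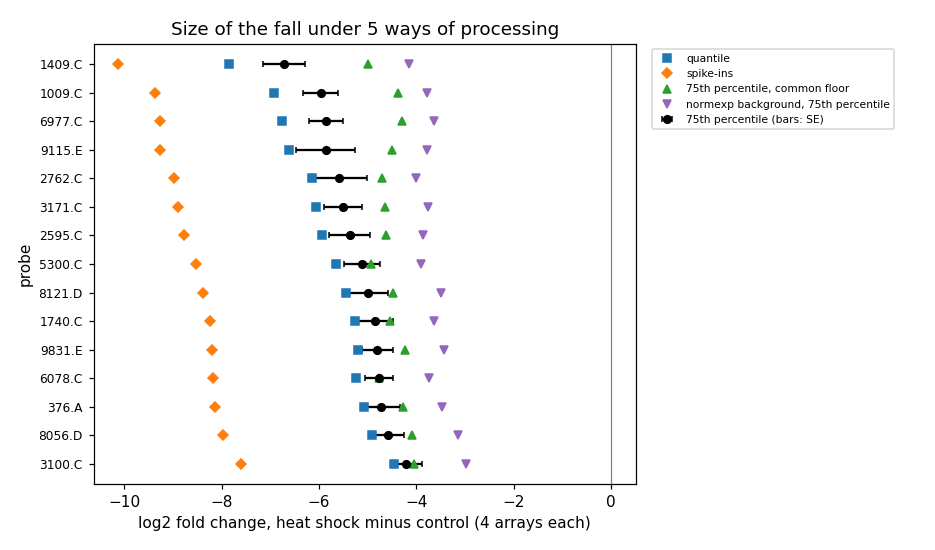
Log2 fold change of each member (heat shock minus control, 4 arrays each) under 5 ways of processing, with the standard error drawn for the 75th percentile scaling. All values lie below 0, from -10.13 for 1409.C with spike-in scaling to -2.98 for 3100.C with normexp background correction.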

How the data were processed

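Total RNA of 4 control and 4 heat shock samples was labelled with Cy3 and read on 8 arrays of 1 slide. Per the file headers, the authors extracted the scans by Agilent Feature Extraction 9.5.3.1. The deposited processed intensity is background-subtracted and detrended array by array, with no scaling across arrays, and the mean and background intensities are as scanned, per the file headers. Marks in the files name saturated, non-uniform and well above background spots. The deposited log2 values have a median near 0 for each probe. They followed the likewise centred scaled signals with slopes of 1.00 and correlations of 0.999 to 1.00, while their scaling between arrays is not given in the sources used here. Their column medians were -0.54, -0.48, -0.44 and -0.13 at 23 °C, against -0.02, 0.64, 0.80 and 0.87 at 42 °C.

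Spots with a non-uniformity or population outlier mark were dropped, and log2 signals were averaged per probe. Ranks were taken within each array over the probes with an unflagged spot. Of the 10000 probes, 9741 had a rank on all 8 arrays, and a probe without a rank on some array was not a member. Probes well above background on at least 4 of 8 arrays were tested with limma 3.58.1 in R 4.3.3 (Benjamini-Hochberg adjustment over 6921 probes, threshold 0.05), after subtraction of the array's 75th percentile. The fit was run on simulated data with normal errors and no detection floor, which cannot speak for the members' dim heat shock signals. A lower bound of a fold replaces a heat shock value below the lowest signal that was well above background on its array by that signal. Deviations from the group means correlated at 0.27, 0.12, 0.26 and 0.20 between arrays of the same replicate number (6750 probes). Arrays of the same number also lay side by side on the slide, so a shared culture and a shared slide position cannot be told apart. All control arrays lay in slide columns 1 and 3, and all heat shock arrays in columns 2 and 4. Treatment and slide column therefore cannot be told apart. The main fit used no block, and a fit with the replicate number as a block is given under the processing alternatives. Named members are those with the largest and smallest falls in mean rank, the highest control ranks and the values nearest to the limits, and 8121.D, 1740.C and 9831.E were added so that every member is accounted for. The members and lists were chosen with earlier results of these data known. Alternatives were other scalings, background corrections, filters, rank limits, blocks by replicate number and slide row, and single arrays left out. The number of arrays limits the precision. Plots were drawn with matplotlib 3.10.9.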

Additional observations from a re-analysis of the deposited data

How the results depend on the processing

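All 15 members kept a negative log2 fold change and their call in each of the 20 alternatives that could be fitted, 300 values from -10.13 to -2.98. Over these alternatives the lower calls in the whole table ran from 1304 (19.3% of tested probes, within slide row 1) to 5213 (75.3%, spike-in scaling). The rule that chose the members used this contrast, so nothing is read from the members' calls. With the replicate number as a block the members' median stayed at -5.12 with 15 called lower, and the whole table gave 2895 higher and 2305 lower calls; the block changed no call of a member. The members' median moved to -5.65 with quantile normalization, -8.52 with spike-in scaling, -3.74 with normexp background correction and -4.50 with a floor common to all arrays. Leaving out single arrays gave medians of -5.29 to -4.95, with 15 called lower each time beside 2074 to 2229 lower calls in the whole table. The rank rule was then met by 15 to 26 probes. With rank limits of 80 and 40 there were 0 members, with flagged spots kept 17, and with ranks of mean minus background signal 15, of which 14 were the same probes. In the whole table, the 2820 higher calls became 472 with spike-in scaling, 5273 with no filter on dim probes and 1861 within slide row 1. The 2205 lower calls became 5213 with spike-in scaling, 1038 among probes well above background on all 8 arrays and 1304 within slide row 1. That last filter on all 8 arrays leaves no member, so it gives no value for them. The causes of these moves were not tested. Dim heat shock signals limit the size of every fall given here.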

Other observations

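Besides the 15 members, 32 control-bright probes had a mean heat shock rank below 50 without meeting the rule on every array, and 1 more probe met the rule on each array where it had a rank but lacked a rank on some array. No control-bright probe with a rank on at least 1 heat shock array had a mean heat shock rank below 25. The 21 spots of the members lay unevenly over the rows of the array, with 3 spots in rows 1 to 48, 9 in rows 49 to 96, 1 in rows 97 to 144 and 8 in rows 145 to 192, where each block of rows held about 25% of all probe spots. In 14 of the 15 probes at least 1 of the 3 reading frames of the printed strand held no stop codon, against 92.5% of all probes. On the scaled levels, the 30 sets of 4 values, 1 per member and group, held no array that stood apart by Dixon's test. The rule limits the rank of every value, and the sets share the same arrays, so nothing is read from this count.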
